A study of Danio rerio with 9 samples.

Results

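The nuclear genes for subunits of the oxidative phosphorylation complexes were followed through zebrafish development in 9 poly(A) RNA-seq libraries, 1 per stage. Members were chosen by symbol, with case ignored: every gene of the table whose symbol begins with ndufa, ndufb, ndufc, ndufs, ndufv, uqcr, cox4, cox5, cox6, cox7, cox8 or atp5, leaving out the assembly factors of the ndufaf series. This gave 73 of 29291 genes, of which 35 were sorted to complex I, 7 to complex III, 15 to complex IV and 16 to complex V. A symbol was known for 19580 of the 29291 gene IDs, so subunits among the other IDs are not covered. The 73 members carry 71 distinct symbols, because cox5b and cox6a1 each stand for 2 gene IDs.

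All libraries came from whole animals of the AB strain, with about 2000 individuals pooled per library, no treatment and no genetic alteration. In hours post fertilization (hpf), the 64-cell stage was taken at 2, the oblong-sphere stage at 3.6 to 4, the 50%-epiboly stage at 5.25 and the 15-somite stage at 16.5 to 17.5. The Prim-25 stage followed at 36, the Long-pec stage at 48, the Pec-fin stage at 60 and the Protruding-mouth stage at 72, and larvae were taken at 1 week. With 1 library per stage there is no replicate error and no test: differences between stages are differences between these libraries. In pooled whole animals, more cells of a type and more RNA per cell cannot be told apart. The libraries hold poly(A) RNA, so values describe that RNA and not all RNA of a gene. Whether the poly(A) part differed between stages was not tested.

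Oxidative phosphorylation is the final stage of respiration in the inner mitochondrial membrane. Complex I takes electrons from NADH and complex III passes them from ubiquinol to cytochrome c. Complex IV then hands them to oxygen, and complex V, the ATP synthase, uses the resulting proton gradient to make ATP. The mitochondrial genome encodes some subunits of these complexes, and nuclear genes, among them those described here, encode the others. An early embryo lives on mitochondria and mRNA laid down in the egg until its own genome is switched on during the blastula stages.

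Depth was even enough to measure nearly all members. Mapped reads, recovered from the deposited values, lay between 123311411 at 64-cell and 205507592 at Protruding-mouth, and the Pec-fin column is read as the mean of 2 runs of 171010360 and 59857652 reads. Values are RPKM, reads scaled by gene length and by the library's mapped reads. A length was found for 69 members, with a median of 742 bases against 2064 bases over all genes past the filter, and 481 of their 552 values outside Pec-fin rested on at least 1000 reads. Of the 73 members, 72 reached 1 RPKM in at least 1 library and 62 reached it in every library. The 1 member below that filter was ndufa4l2b, whose highest value was 0.815 RPKM at 1 week.

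The typical level of the members was higher at each stage from oblong-sphere to Pec-fin, and lower at oblong-sphere than at 64-cell. Their median was 20.3 RPKM at 64-cell, 16.0 at oblong-sphere, 29.0 at 50%-epiboly, 49.3 at 15-somite, 69.2 at Prim-25, 78.3 at Long-pec, 90.01 at Pec-fin, 82.0 at Protruding-mouth and 74.3 RPKM at 1 week. The median of all 19868 genes past the filter stayed between 1.34 and 3.62 RPKM. Of all summed RPKM, the members held 0.736% at 64-cell, 0.761% at oblong-sphere, 1.04% at 50%-epiboly, 1.41% at 15-somite, 1.85% at Prim-25, 2.02% at Long-pec, 2.27% at Pec-fin, 2.23% at Protruding-mouth and 1.64% at 1 week. The member sum itself was 8895 RPKM at 1 week, against 8753 at Protruding-mouth, while the sum over all genes was 541791, against 392266. The highest value fell at Pec-fin for 36 members, at 1 week for 20, at Protruding-mouth for 10, at Long-pec for 5 and at Prim-25 for 2. The lowest fell at oblong-sphere for 46 members, at 64-cell for 16, at 50%-epiboly for 10 and at Pec-fin for 1, the complex IV copy cox5aa. The stages of highest and lowest values were not counted over all genes. These member counts therefore cannot be set against a share of all genes.

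**Figure D1:**
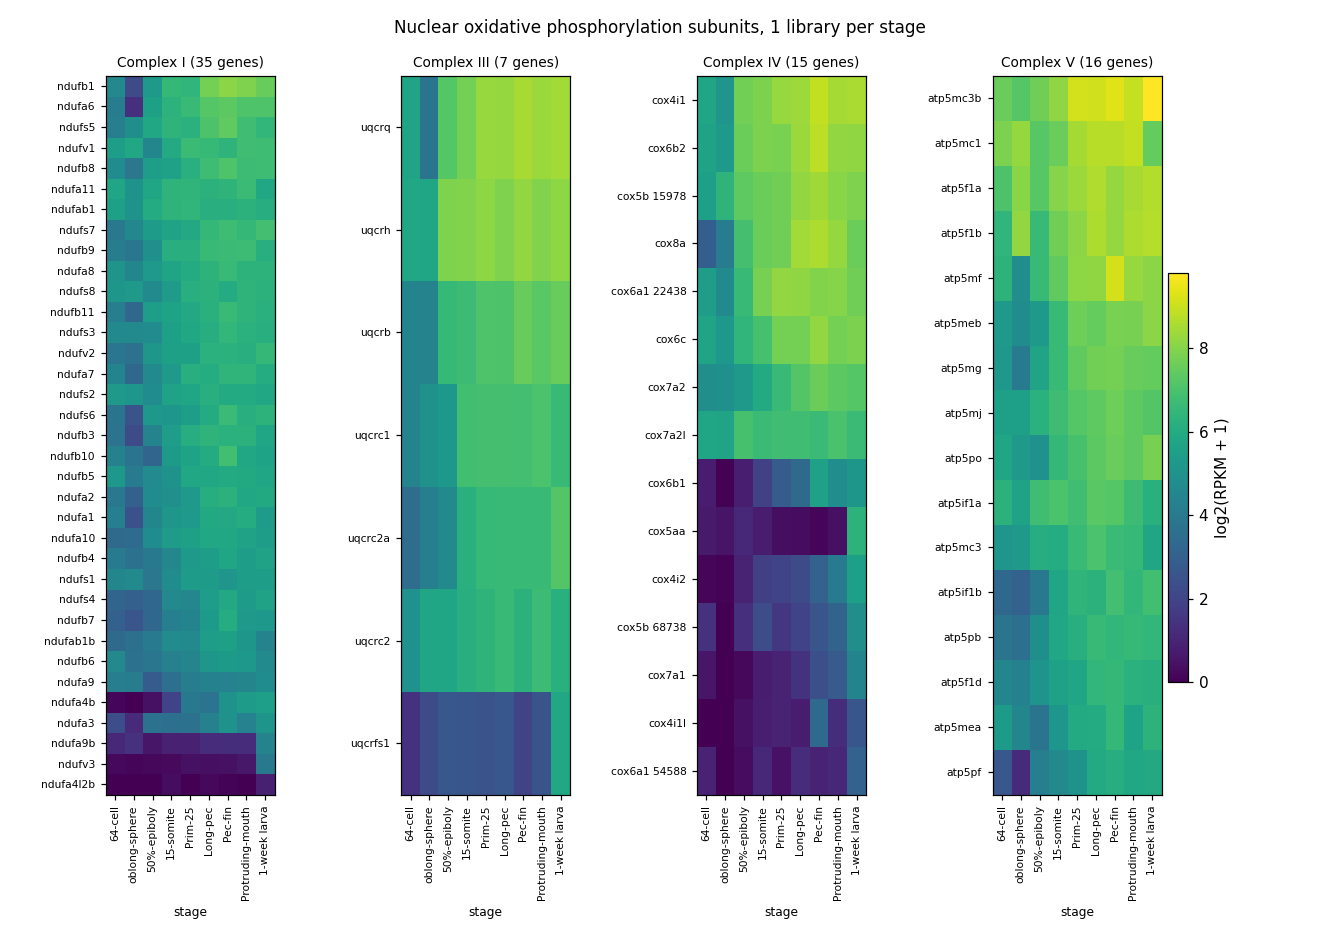
Level of each of the 73 members in each of the 9 libraries as log2(RPKM + 1), by complex and, within a complex, from the highest to the lowest mean; the 5 digits after cox5b and cox6a1 are the ends of their gene IDs. Oblong-sphere is the darkest column for 46 rows and Pec-fin the brightest for 36, counts not made over all genes. Rows at the foot of complexes I and IV are dark until the last stages.

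Levels differed widely between members of a complex. At Pec-fin, the 28 accessory complex I members ran between 0.0735 and 274 RPKM and the 7 core members between 33.8 and 108 RPKM. Complex III then spanned 3.01 to 368 RPKM, complex IV 0.137 to 477 RPKM and complex V 67.8 to 635 RPKM. In all, 43 members were at 10 RPKM or more in every library, and 20 had a mean of at least 100 RPKM. At the other end, 14 had a mean under 20 RPKM. The lowest value of all was that of cox4i1l at 64-cell, with 0 reads, which allows up to 0.0373 RPKM by a floor of 3 reads.

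Between the ends of the course, 61 of the 72 members kept were at least 2-fold higher at 1 week than at 64-cell, and 0 were at least 2-fold lower. Fold is counted throughout on the log2(RPKM + 1) scale, later minus earlier stage, which understates the change of low genes. Over all genes past the filter, 39.9% were 2-fold higher and 29.9% were 2-fold lower. The member count differed between alternative settings, which are given in the closing section. The median member difference was 2.21 on the log2 scale, against 0.39 over all genes. By complex, the counts were 27 of 34 for complex I, 7 of 7 for complex III, 14 of 15 for complex IV and 13 of 16 for complex V.

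**Figure D2:**
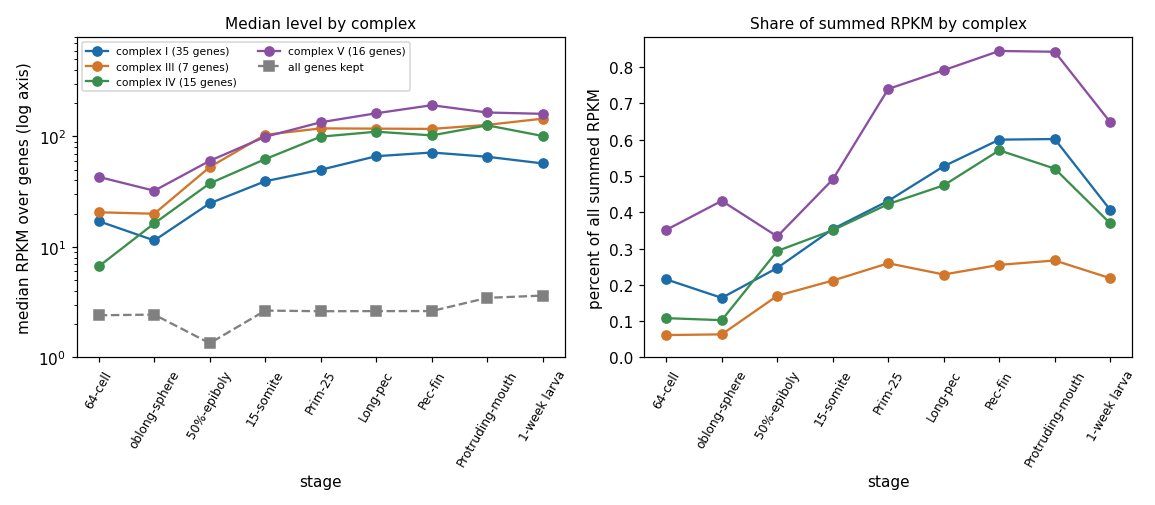
Left, the median RPKM over the genes of each complex by stage on a log axis, with the median of all genes kept in grey; right, the share of all summed RPKM held by each complex, in percent. Complex V held the largest share in every library, reaching 0.845% at Pec-fin, and the share of each complex was lower at 1 week than at Protruding-mouth. The summed RPKM of all members was 8895 at 1 week, against 8753 at Protruding-mouth.

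From 64-cell to oblong-sphere, 13 of 72 members were 2-fold lower or more at oblong-sphere and 2 were higher by that fold, against 3.3% and 3.1% of all genes. The median difference was -0.26, against 0.00 for all genes. In complex I, 8 of 27 accessory subunits were 2-fold lower, with a median of -0.57. None of the 7 core subunits, which carry the electrons and bind quinone, moved by 2-fold, and their median was 0.08. In complex III, the 4 core and Rieske members were all above 0 with a median of 0.77, whereas the 3 small subunits were all below 0. In complex V, the F1 head and central stalk had a median of 0.96 and the small membrane subunits one of -0.85. In complex IV, 11 of 15 members were below 0. The median level over its genes was still 16.3 RPKM at oblong-sphere, against 6.66 at 64-cell. Cox8a stood in the middle of that list at both stages. How many of all genes lay above or below 0 was not counted at any step.

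The beta subunit of ATP synthase, atp5f1b, which holds the catalytic sites, had 86.4 RPKM at 64-cell, 297 at oblong-sphere, 95.2 at 50%-epiboly and 205 at 15-somite. Its oblong-sphere value stood above both neighbours, and the later values lay between 271 and 416 RPKM. The alpha subunit, atp5f1a, which alternates with beta in the F1 head, showed the same order at those stages with 134, 263, 151 and 257 RPKM. Cox8a, a small complex IV subunit, was the other member at least 2-fold higher at oblong-sphere, with 16.3 RPKM against 6.66 at 64-cell.

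On the log2(RPKM + 1) scale, the accessory complex I subunits ndufa6 and ndufb1 had the most negative differences at oblong-sphere. Ndufa6 had 16.4 RPKM at 64-cell, 1.59 at oblong-sphere and 45.9 at 50%-epiboly. Ndufb1 had 23.7, 3.69 and 38.5 RPKM at these stages. Uqcrq, a small subunit of complex III, had 52.3, 12.7 and 147 RPKM. In all of them oblong-sphere was the lowest of the 9 libraries.

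Among the complex I core, the flavoprotein ndufv1, which binds NADH, had 44.0 RPKM at 64-cell, 55.7 at oblong-sphere and 21.8 at 50%-epiboly, the reverse of the accessory pattern. Ndufs1, an iron-sulfur protein, had 21.4, 24.8 and 13.7 RPKM, and ndufs8, another, had 35.3, 37.4 and 24.8 RPKM. Ndufs7 and ndufv2 went the other way between the later of these stages: ndufs7 had 41.7 RPKM at 50%-epiboly, against 22.4 at oblong-sphere, and ndufv2 had 35.6 RPKM at 50%-epiboly, against 11.4 at oblong-sphere. The core was thus mixed at 50%-epiboly, with 3 of 7 members above and 4 below their oblong-sphere level.

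At 50%-epiboly, 29 of 72 members were at least 2-fold higher than at oblong-sphere and 4 were lower by that fold, where 14.4% of all genes were higher and 31.1% lower. The member median was 0.76, against -0.09 for all genes. Complex I accessory subunits were 2-fold higher in 13 of 27, with a median of 0.97, and the core in 1 of 7, with a median of -0.39. All 3 small complex III subunits were higher, with a median of 2.19, and all 15 complex IV members were above 0, 7 of them by 2-fold. The 4 lower members were atp5f1b, ndufa9, ndufv1 and atp5mc1. Ndufa9, an accessory subunit beside the quinone site, had 6.15 RPKM at 50%-epiboly, against 17.0 at oblong-sphere. These steps share the oblong-sphere library, so a low value there enters both with opposite sign.

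Ratios within a library do not depend on how libraries are scaled, and were added after the values were seen. The summed RPKM of 28 accessory complex I subunits over that of the 7 core subunits was 2.495 at 64-cell, 1.36 at oblong-sphere and 3.59 at 50%-epiboly, and 2.89 to 4.24 in the 6 later libraries. Atp5f1b over the median of the 14 complex V members other than alpha and beta was 2.26 at 64-cell, 11.2 at oblong-sphere and 2.12 at 50%-epiboly, and 1.82 to 3.24 later. Oblong-sphere lay outside the range of the other 8 libraries in both. Both ratios use genes already seen to differ at oblong-sphere, so its place outside the range is no separate evidence.

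Among the members, gene length moved with the oblong-sphere difference. Split at 742 bases, 8 of 34 shorter members and 4 of 35 longer ones were 2-fold lower at oblong-sphere than at 64-cell. Over all genes with a length, the shares were 10.7% of the shorter and 2.87% of the longer. Shorter genes were also more often 2-fold higher at oblong-sphere, 5.68% against 3.34% of the longer. The median difference was -0.58 for shorter and -0.14 for longer members, against -0.02 and 0.00 over all genes with a length. At 50%-epiboly against oblong-sphere, 18 of 34 shorter and 10 of 35 longer members were 2-fold higher, against 16.9% of all shorter and 15.0% of all longer genes. The 72 cytosolic ribosomal protein genes had a median difference of -0.43 at oblong-sphere against 64-cell and 2.5 at 50%-epiboly against oblong-sphere. The part of length in the member differences was not tested.

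**Figure D3:**
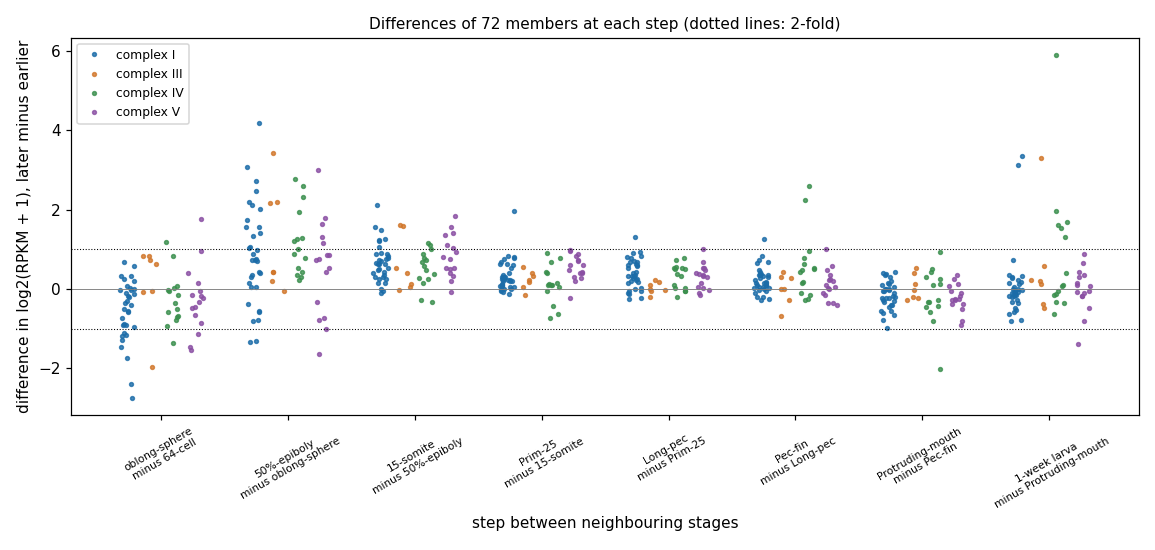
Difference in log2(RPKM + 1), later minus earlier stage, for each of the 72 kept members at the 8 steps between neighbouring stages, coloured by complex; dotted lines mark 2-fold and the sideways scatter has no meaning. Values spread widest around oblong-sphere, lie mostly between the dotted lines from Prim-25 on, and a few members of complexes I, III and IV stand far above at 1 week.

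From 50%-epiboly to 15-somite, 18 of 72 members were at least 2-fold higher at 15-somite and 0 lower, against 16.4% and 4.91% of all genes. The median was 0.62, against 0.18. This count depends on scaling: median-of-ratios scaling, which shifts this step by -0.63 on the log2 scale, left 3 members 2-fold higher and a median of 0.06. With that scaling 10.3% of all genes were higher and 13.5% lower, with a median of -0.01. Scaling without the 100 highest genes gave 18 members higher and a median of 0.64, against 17.2% and 0.19 for all genes. Without the mitochondrially encoded genes 15 were higher with a median of 0.56, against 15.9% and 0.15. Uqcrc1, a complex III core protein, had 114 RPKM at 15-somite, against 36.6 at 50%-epiboly. Ndufb10, an accessory complex I subunit, had 39.3 RPKM at 15-somite, against 8.27 at 50%-epiboly. Atp5if1b, a copy of the ATP synthase inhibitor rather than a subunit, had 54.4 RPKM at 15-somite, against 14.4 at 50%-epiboly.

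From 15-somite to Pec-fin the members drifted up with few single jumps. At Prim-25, 1 member was 2-fold higher than at 15-somite and 0 lower, against 6.23% and 4.96% of all genes, with a median of 0.29. At Long-pec, 2 were higher than at Prim-25 and 0 lower, against 0.81% and 0.403%, with a median of 0.33. At Pec-fin, 4 were higher than at Long-pec and 0 lower, against 0.785% and 0.72%, with a median of 0.16. The complex V members led at Prim-25 with a median of 0.54, where the c ring, the rotor in the membrane, had one of 0.89. Members above 0 numbered 62, 55 and 51 of 72 at these 3 steps, a count not made over all genes. The median of all genes was -0.06, 0.02 and -0.01 in the same order.

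Atp5mc3b, a c ring gene and the member with the highest mean, had 289 RPKM at 15-somite, 561 at Prim-25, 550 at Long-pec and 635 at Pec-fin. Ndufb1 had 86.5 RPKM at Prim-25, 217 at Long-pec and 274 at Pec-fin, where it was the highest complex I member. Atp5mf, a small membrane subunit, had 580 RPKM at Pec-fin, against 289 at Long-pec. At Protruding-mouth it had 309 RPKM, so the Pec-fin library stood alone for this gene. Over the 69 members whose Pec-fin values split into 2 runs, the log2 difference between runs had an SD of 0.0649 and reached 0.422 in cox5aa, a spread between runs that is not replicate error.

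At Protruding-mouth, 0 of 72 members were at least 2-fold higher than at Pec-fin and 1 was lower, cox4i1l, against 7.18% and 2.1% of all genes. The median was -0.20, against 0.13 for all genes, and 47 of 72 members were below 0, a count not made over all genes. The sign of this small shift follows the scaling. It was -0.50 with median-of-ratios scaling, which left 6 members lower, where 4.6% of all genes were lower and their median was -0.01. It was 0.07 where libraries were rescaled without the mitochondrially encoded genes, against 0.30 for all genes.

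At 1 week, 9 of 72 members were at least 2-fold higher than at Protruding-mouth and 1 was lower, against 15.1% and 6.86% of all genes. The median was -0.02. All 9 had a mean under 20 RPKM over the libraries, and 6 of them belonged to complex IV. Under the other scalings the higher count was 7 or 8. The lower count was 6 with median-of-ratios scaling, 11 without the 100 highest genes and 10 without the mitochondrially encoded genes. Over all genes, in that order, 13.5%, 19.0% and 18.0% were 2-fold lower, and 9.4%, 9.9% and 9.7% were higher. The median of the members under these scalings, in the same order, was -0.44, -0.57 and -0.55, against -0.26, -0.37 and -0.35 for all genes. With or without rescaling, 7 to 9 of 72 members stood at least 2-fold higher, a share near that of all genes. In the values as deposited it was 12.5% of members, against 15.1%. The count therefore does not set the members apart.

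Cox5aa, a copy of complex IV subunit 5a, had the largest difference of any member at any step. It had 0.637 RPKM at 64-cell, 0.483 at oblong-sphere, 1.15 at 50%-epiboly, 0.723 at 15-somite, 0.287 at Prim-25, 0.250 at Long-pec, 0.137 at Pec-fin, 0.343 at Protruding-mouth and 79.0 RPKM at 1 week. The Protruding-mouth value rested on 292 reads, with an exact 95% Poisson interval of 0.305 to 0.385 RPKM for counting error only. The difference at 1 week was 5.90 on the log2 scale. No other 5a gene was among the members.

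Ndufv3, an accessory flavoprotein-module subunit of complex I, was at or below 0.544 RPKM in the first 8 libraries and at 14.7 RPKM at 1 week. Uqcrfs1, the Rieske iron-sulfur protein of complex III, lay between 1.68 and 5.35 RPKM in the first 8 libraries and had 55.9 RPKM at 1 week. Every other complex III member was at 10 RPKM or more in all 9 libraries. Uqcrfs1 is a catalytic subunit, so its low level until 72 hpf sets it apart in level from the uqcrc and small subunit genes of the same complex. Whether reads of another copy are missing from this ID was not tested.

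The remaining late genes are copies in families with a second, higher copy. Cox4i1, the main subunit 4 gene, had 54.6 RPKM at 64-cell, 477 at Pec-fin and 375 at 1 week. Cox4i2, in mammals an isoform known from lung, had 0.118 RPKM at 64-cell, 2.59 at 15-somite, 7.43 at Pec-fin, 15.1 at Protruding-mouth and 45.8 at 1 week. Its share of the cox4 sum was 10.7% at 1 week, against 4.05% at Protruding-mouth. Cox4i1l had 0.677 RPKM at Long-pec, 9.07 at Pec-fin, 1.46 at Protruding-mouth and 5.15 at 1 week.

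For subunit 6b, the copy named cox6b2 carried the bulk, with 49.2 RPKM at 64-cell, 448 at Pec-fin and 289 at 1 week. Cox6b1 had 0.705 RPKM at 64-cell, 9.35 at Long-pec, 47.9 at Pec-fin, 26.7 at Protruding-mouth and 35.5 at 1 week. Its share of the pair was 2.87% at Long-pec, 9.66% at Pec-fin, 8.26% at Protruding-mouth and 10.9% at 1 week. Cox7a1, in mammals the isoform of heart and skeletal muscle, had 20.4 RPKM at 1 week, against 6.01 at Protruding-mouth. Cox7a2, its widely expressed partner, had 146 RPKM at 1 week, against 160 at Protruding-mouth.

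Both repeated symbols were a high and a low copy. The high cox5b copy, ENSDARG00000015978, had 241 RPKM at 1 week, against 267 at Protruding-mouth, and the low one, ENSDARG00000068738, had 27.3 RPKM at 1 week, against 7.70 at Protruding-mouth. The high cox6a1 copy, ENSDARG00000022438, had 201 RPKM at 1 week, against 258 at Protruding-mouth. The low one, ENSDARG00000054588, had 7.43 RPKM at 1 week, against 1.17 at Protruding-mouth. In complex I, ndufa9b, annotated as a pseudogene by RefSeq on its current assembly, had 19.95 RPKM at 1 week, against 1.40 at Protruding-mouth, and so reached 43.2% of the ndufa9 pair, against 6.197%. Near-identical copies can share reads, and the counting of such reads is not given in the sources used here.

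Ndufa4b was higher from Prim-25 on. Its protein family is now counted with complex IV, though the symbol places it with complex I here. It had 0.0983 RPKM at 64-cell, 0.0197 at oblong-sphere, 0.339 at 50%-epiboly, 2.96 at 15-somite, 14.5 at Prim-25, 12.1 at Long-pec, 30.5 at Pec-fin, 40.6 at Protruding-mouth and 45.6 at 1 week. It was the only member at least 2-fold higher at Prim-25 than at 15-somite, by 1.97 on the log2 scale.

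**Figure D4:**
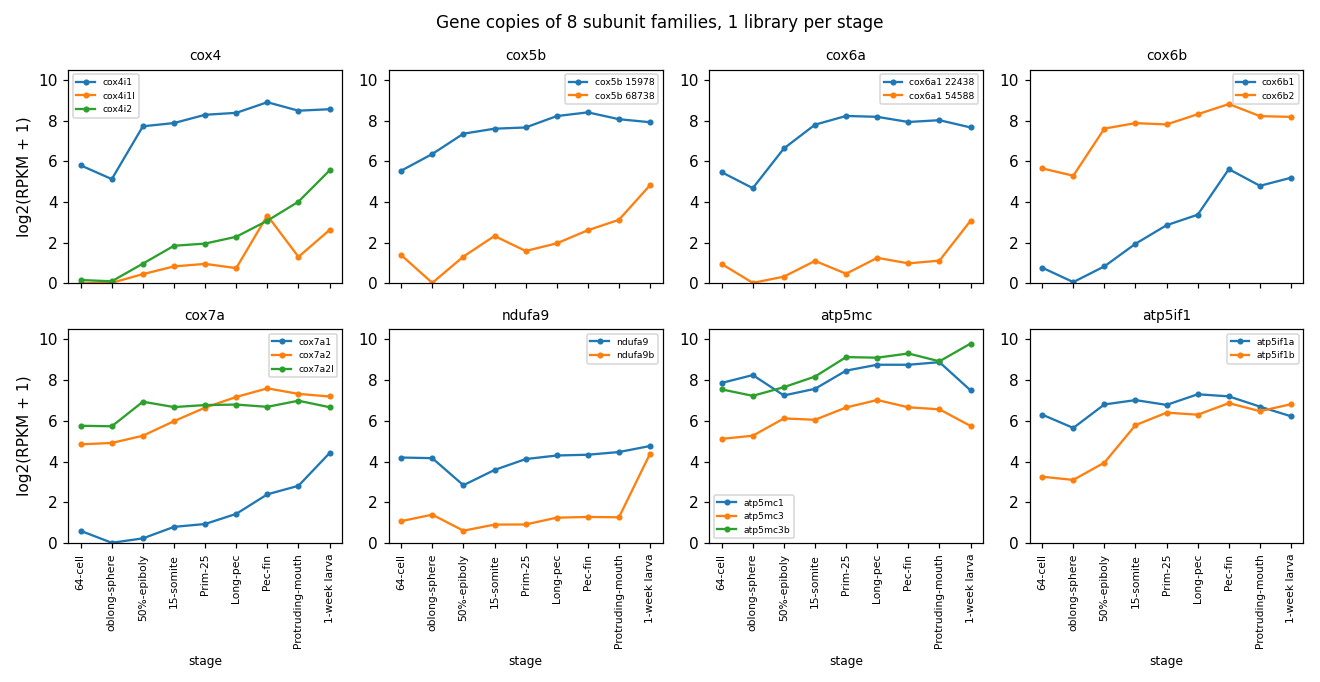
Level of each copy as log2(RPKM + 1) by stage in 8 subunit families, 1 library per stage; the 5 digits after cox5b and cox6a1 are the ends of their gene IDs. Cox4i2, cox7a1, ndufa9b and the low cox5b and cox6a1 copies have their highest value at 1 week, cox6b1 and cox4i1l have theirs at Pec-fin, and atp5mc1 and atp5mc3b part at 1 week.

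The summed levels of tissue markers moved with these late copies at some steps and not at others. The summed RPKM of 14 skeletal muscle markers, matched of 29 listed, was 27402 at 1 week, against 11629 at Protruding-mouth, and 13167 at Pec-fin, against 5169 at Long-pec. It was 6186 at Prim-25, against 296 at 15-somite, where 13 of 14 were 2-fold higher, against 6.23% of all genes. At Prim-25 the low cox5b copy had 2.01 RPKM, against 4.015 at 15-somite, and the low cox6a1 copy 0.385, against 1.144. Cox7a1 had 0.907 RPKM at Prim-25, against 0.730, and cox6b1 6.24, against 2.85. The summed RPKM of 15 exocrine pancreas markers, matched of 20 listed, was 31906 at 1 week, against 173 at Protruding-mouth. The sum of 15 liver markers, matched of 16 listed, was 3355 at 1 week, against 6978 at Protruding-mouth, but their median was 49.9 RPKM, against 20.5. Of the 14 liver markers past the filter, 6 were 2-fold higher at 1 week than at Protruding-mouth and 3 lower. Over all genes, 15.1% were higher and 6.86% lower. The sum of 8 heart markers, matched of 11 listed, was 43.1 at 1 week, against 41.7 at Protruding-mouth. The sum of 15 oocyte and egg markers, of 19 listed, was 87.7 at 1 week, against 2.62 at Protruding-mouth. That of 11 testis and sperm markers, of 14 listed, was 6.52 at 1 week, against 4.87. The exocrine markers also varied in the early libraries, with sums of 84.3 at 64-cell, 0.540 at oblong-sphere, 47.0 at 50%-epiboly, 106 at 15-somite, 22.1 at Prim-25, 81.8 at Long-pec and 6.83 at Pec-fin. Several low copies shared the low value at oblong-sphere: the low cox5b copy had 0.0146 RPKM there, against 1.62 at 64-cell, the low cox6a1 copy 0.0148, against 0.931, and cox7a1 0.00554, against 0.511. Other late genes did not share it: ndufa9b had 1.621 RPKM at oblong-sphere, against 1.104 at 64-cell, and uqcrfs1 3.75, against 1.68. Cox5aa had 0.483 RPKM at oblong-sphere, against 0.637, and ndufv3 0.134, against 0.147. At oblong-sphere, 2 reads lay behind the cox6a1 value and 1 read behind the cox7a1 value. The part of any of these marker levels in the values of the low copies was not tested.

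The c ring genes moved apart at 1 week. Atp5mc1 had 180 RPKM at 1 week, against 472 at Protruding-mouth, and was the 1 member counted as lower at that step. Atp5mc3b had 889 RPKM at 1 week, against 486 at Protruding-mouth, the highest value of any member in any library. Atp5mc3 had 52.8 RPKM at 1 week, against 93.9 at Protruding-mouth. Of their sum, which was 1122 RPKM at 1 week and 1052 at Protruding-mouth, atp5mc3b held 79.3% at 1 week, against 46.2%. At oblong-sphere atp5mc1 held the larger share, 61.9%.

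Of the inhibitor copies, atp5if1b was the lower in the first 8 libraries and the higher at 1 week. Atp5if1a had 78.2 RPKM at 64-cell, 157 at Long-pec and 73.8 at 1 week. Atp5if1b had 8.55, 78.0 and 112 RPKM at these stages. Atp5if1b held 9.85% of the pair at 64-cell, 43.4% at Prim-25 and 60.3% at 1 week. In the cox7a family, cox7a2l, known as a factor of respiratory supercomplexes, held 34.2% at Pec-fin, against 76.4% at 50%-epiboly, while cox7a2 held 64.4% at Pec-fin, against 23.5% at 50%-epiboly.

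How closely members follow their complex was measured as the root mean square distance between a member's centred log2(RPKM + 1) course and the median course of its complex over 9 stages. It was under 0.5 for 39 of 73 members. The median course includes the member itself, and no distance was computed for other genes. The count therefore cannot be set against a share of all genes. The farthest were cox5aa at 1.84, ndufa4b at 1.44, ndufa6 at 1.18, ndufv3 at 1.11, cox6b1 at 1.102, ndufa9b at 1.097, ndufb1 at 1.08, uqcrfs1 at 1.06 and cox8a at 1.05. In complex V the farthest was atp5pf, a peripheral stalk subunit, at 0.856. It had 5.34 RPKM at 64-cell, 1.29 at oblong-sphere, 17.5 at 50%-epiboly and 67.8 at Pec-fin. Its low oblong-sphere value resembled those of ndufa6 and ndufb1.

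The mitochondrially encoded subunits, 13 genes in this table, had a summed RPKM 8.31 times that of the nuclear members at 64-cell, 9.52 at oblong-sphere, 8.33 at 50%-epiboly, 9.82 at 15-somite, 7.80 at Prim-25, 5.89 at Long-pec, 4.85 at Pec-fin, 7.28 at Protruding-mouth and 7.32 at 1 week. Pec-fin was the lowest of the 9. With medians over genes in place of sums, Pec-fin was again the lowest over all complexes, but for complex IV it was 57.5 at Pec-fin, against 54.9 at Prim-25, its lowest. For complex IV the ratio was 9.64 at Pec-fin, against 31.8 at oblong-sphere, and for complex I it was 2.87 at Pec-fin, against 11.5 at oblong-sphere. Complex V ran apart early, with 8.87 at 15-somite, against 3.56 at oblong-sphere. Poly(A) selection can retain mitochondrial RNA unevenly between libraries, and its part in the ratio was not tested.

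**Figure D5:**
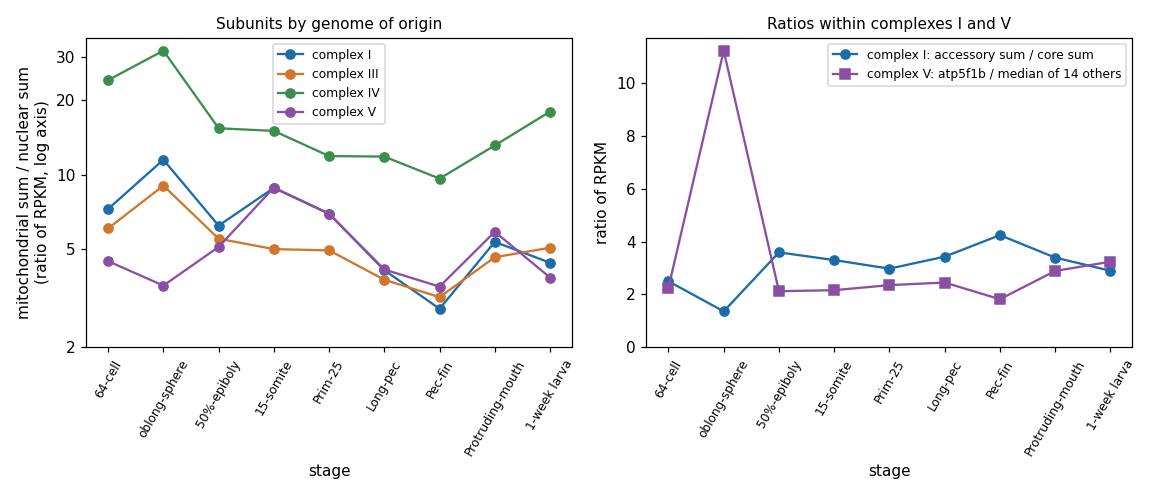
Left, summed RPKM of mitochondrially encoded over nuclear subunits of each complex by stage, on a log axis; right, within-library ratios of accessory to core complex I subunits and of atp5f1b to the median of 14 other complex V members. The right panel shows oblong-sphere lowest for complex I at 1.36 and highest for atp5f1b at 11.2, and the left panel shows Pec-fin lowest for all 4 complexes, for complex V by 3.52 against 3.56 at oblong-sphere.

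Other genes of the pathway were counted in the same way at 50%-epiboly against oblong-sphere. Over all genes at this step, 14.4% were 2-fold higher and 31.1% lower. Of 18 citric acid cycle genes past the filter, 7 were 2-fold lower at 50%-epiboly than at oblong-sphere and 1 was higher, and their median was -0.40. The citric acid cycle enzyme mdh2 had 31.2 RPKM at 50%-epiboly, against 133 at oblong-sphere. The 5 complex II genes, which link the cycle to the electron chain, had 0 higher, 2 lower and a median of -0.66. The 12 complex I assembly factors had 1 higher and 3 lower, and the 22 assembly factors of complexes III and IV had 3 higher and 8 lower. The 61 mitochondrial ribosomal protein genes had 13 higher, 7 lower and a median of 0.12, and the 20 import genes had 6 higher, 1 lower and a median of -0.01. In the cytosolic ribosomal protein list 71 of 72 were higher at this step.

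Between 1 week and 64-cell, 39.9% of all genes were 2-fold higher at 1 week and 29.9% lower. In the citric acid cycle 11 of 18 genes were 2-fold higher and 0 lower (median 1.37), and complex II 4 of 5 higher. The 10 carriers and channels of the mitochondrial membranes had 9 higher, 0 lower and a median of 3.02. Slc25a4, an ADP/ATP carrier, had 546 RPKM at 1 week, against 0.673 at 64-cell. The mitochondrial ribosomal proteins had 11 of 61 higher, 13 lower and a median of -0.62, and the import genes had 3 of 20 higher, 8 lower and a median of -0.65. The 13 genes of mitochondrial transcription and biogenesis had 4 higher and 3 lower, and pprc1, a coactivator of nuclear genes for respiration, had 134 RPKM at oblong-sphere, against 45.7 at 64-cell, and 1.93 RPKM at 1 week. The 10 glycolysis genes matched of 32 listed had 8 higher and 0 lower. The 12 complex I assembly factors had 3 higher and 4 lower, the 22 assembly factors of complexes III and IV had 5 higher and 3 lower, and 70 of 72 cytosolic ribosomal protein genes were higher.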

How the data were processed

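Per the labels' protocols, poly(A) RNA of pooled animals was cut with RNase III and sequenced as SOLiD fragment libraries. The authors deposited 1 table of RPKM values for 29291 genes and 9 stages. The build was Zv9, per the submitters' processing notes. What aligner, counting program and annotation release were used is not given in the sources used here. Gene symbols came from a table of gene IDs. Mapped reads, gene lengths and read numbers were recovered from the deposited RPKM values as whole numbers to a relative tolerance of 1e-09, and the recovery was tested on simulated data. Intervals are exact Poisson at 95% and cover counting error only; the floor is 3 reads.

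The filter was 1 RPKM or above in any library, which 19868 genes passed. Each comparison is a difference in log2(RPKM + 1), counted at 2-fold, with no test because each stage has 1 library. Members and gene lists were chosen with earlier results of these data known. Genes named were, per complex, the 3 with the highest mean, the 3 farthest from their complex and the lowest, the 3 largest differences in each direction per step, paralogue copies and core subunits. Within-library ratios, the length split and the alternatives for the comparison of 1 week with 64-cell were added after seeing the data. Python 3.11.15, numpy 2.4.6, pandas 2.3.3, scipy 1.17.1 and matplotlib 3.10.9 were used. No sequences are printed.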

Additional observations from a re-analysis of the deposited data

How the results depend on the processing

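No paired analysis was possible because each stage has 1 library and no result comes from a test. Counts of members at least 2-fold higher or lower moved as follows. Here moved is a label: an item said not to move, or left out, can still differ from the main value. With a 1.5-fold threshold, counts are listed in the order from oblong-sphere minus 64-cell to 1 week minus Protruding-mouth. The higher counts labelled as moved were 9 (oblong-sphere), 37 (15-somite), 20 (Prim-25), 16 (Long-pec), 11 (Pec-fin) and 1 (Protruding-mouth). The lower ones were 25 (oblong-sphere), 8 (50%-epiboly), 2 (Prim-25), 1 (Pec-fin), 9 (Protruding-mouth) and 6 (1 week). The higher count at 50%-epiboly is not listed but also changed. There ndufs5 (0.97) and cox4i2 (0.87), among others, lay past 1.5-fold and under 2-fold. With a 4-fold threshold, the higher counts were 0, 14, 1, 0, 0, 2 and 4 in the same order of steps, without Protruding-mouth, and the lower ones 2 (oblong-sphere), 0 (50%-epiboly) and 0 (1 week). With a pseudocount of 0.1 RPKM, Prim-25 had 3 higher and 2 lower and Protruding-mouth 1 higher. Median-of-ratios scaling gave 42 higher and 2 lower at 50%-epiboly, where 18.2% of all genes were higher and 27.9% lower. It gave 3 higher at 15-somite, 3 at Prim-25 and 1 at Long-pec, against 10.3%, 6.55% and 0.705% of all genes. It gave 6 lower at Protruding-mouth and 6 lower at 1 week, against 4.6% and 13.5%. Scaling without the 100 highest genes gave 5 higher at Prim-25, 1 at Long-pec and 1 at Protruding-mouth, against 7.18%, 0.544% and 9.21%. It gave 11 lower at 1 week, against 19.0%. Without mitochondrially encoded genes 1 was higher at Long-pec and 1 at Protruding-mouth, against 0.478% and 10.8%, and 10 were lower at 1 week, against 18.0%. Pec-fin run 1 alone gave 2 lower at Protruding-mouth. Members with a mean of at least 10 RPKM had 0 lower at Protruding-mouth and 0 higher at 1 week. No share over all genes is given for the 1.5-fold and 4-fold thresholds, the 0.1 pseudocount or these last 2 settings. Their member counts therefore cannot be set against all genes. For 1 week minus 64-cell, alternatives chosen after seeing the data gave 44 to 65 higher, and 1 lower with median-of-ratios scaling and 1 without mitochondrially encoded genes. No share over all genes is given for these alternatives, so the range cannot be set against the 39.9% of the main count. Of the alternative shares of summed RPKM, 15 moved and 3 did not: without the 100 highest genes the members held 0.821% at 64-cell, 4.08% at Pec-fin and 2.64% at 1 week, and without mitochondrially encoded genes the highest share was 2.66% at Protruding-mouth. The ratio of mitochondrially encoded to nuclear genes moved in all 9 libraries with medians in place of sums, to between 27.5 and 93.4. Of the distances recomputed, 18 did not move and 6 did, all with the 0.1 pseudocount, ndufa4b to 2.40 and cox5aa to 2.54. Reversed medians were complex III at 15-somite (-0.24 with median-of-ratios), complex I at Protruding-mouth (0.11 without mitochondrially encoded genes), complex III at 1 week (-0.22, -0.35 and -0.33 with the 3 scalings) and complex IV at 1 week (-0.32, -0.44 and -0.42, and -0.13 in members with a mean of at least 10 RPKM). The cause was not tested. With no replicates, differences of the size seen at most late steps cannot be set against biological spread.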
